A study of Mus musculus with 60 samples.

Results

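The 10 genes described here encode cell-surface receptors for TGFb, activins and bone morphogenetic proteins (BMPs): Tgfbr1, Tgfbr2, Tgfbr3, Acvr1, Acvr1b, Acvrl1, Acvr2a, Bmpr1a, Bmpr1b and Bmpr2. They were chosen by name, as the pathway that the study's small molecules are directed against, with earlier results of these data known. Each has 1 row among the 56980 gene rows of both deposited count tables, and all 10 passed the filter on low counts in each fit. The study asked how short induction of the reprogramming factors Oct4, Sox2, Klf4 and c-Myc, and separately 3 days of receptor inhibitors, changed mouse fibroblasts with a hypomorphic and a null allele of Ercc1, a subunit of a DNA repair endonuclease. There were 20 groups of 3 polyadenylated RNA-seq libraries, 60 in all.

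In the reprogramming table (36 libraries), D/KO stood for tail tip fibroblasts labelled 4FJ_ERCC1_(d/-) from a male of 8 weeks, and WT for tail tip fibroblasts labelled 4FJ_(+/-)_OCT4-GFP from a female of 22 weeks. The methods describe the reprogrammable mice with an OCT4 reporter apart from the 4Fj mice, so the factor transgene may also differ between the lines. Both lines carry the inducible factors, which 2 µg/ml doxycycline switched on for 2 or 4 days, with a day 0 group. Each of these 3 times was also run with VC, that is 50 µg/ml ascorbic acid plus 3 µM of the glycogen synthase kinase inhibitor CHIR. In the inhibitor table (24 libraries), D/KO cells without inducible factors (ERCC1_(d/-), female, 4 weeks) were kept as controls or treated for 3 days with Repsox, Vactosertib, A83-01 or DMH-1. The same table held control WT fibroblasts (ERCC1_(+/+)_WT, female, 14 weeks) from tail tip and from skin, and 3 libraries of 4FJ_(+/-)_OCT4-GFP tail tip cells (female, 22 weeks) labelled TGFB. All cells had been passaged 3 times or fewer and grown in 3% O2. The labels and methods name 1 mouse for each line, so genotype, sex, age and line cannot be told apart, and replicates are cultures or libraries of that line. P-values therefore measure only the spread between these libraries.

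TGFb family ligands signal through a complex of type II and type I receptors, which are serine/threonine kinases. The type II receptor binds ligand and phosphorylates the type I receptor, whose kinase then phosphorylates Smad proteins that enter the nucleus. Type I receptors are also called ALKs: Acvrl1 is ALK1, Acvr1 is ALK2, Bmpr1a is ALK3, Acvr1b is ALK4, Tgfbr1 is ALK5 and Bmpr1b is ALK6. Tgfbr2 is the type II receptor for TGFb, Acvr2a binds activins and several BMPs, and Bmpr2 is the main type II receptor for BMPs. Tgfbr3, or betaglycan, is a co-receptor without a kinase that presents TGFb2 and inhibin. In fibroblasts the Tgfbr1 and Tgfbr2 pair is known for driving collagen and contractile genes. Repsox, Vactosertib and A83-01 inhibit the kinase of ALK5, and A83-01 also that of ALK4. DMH-1, a dorsomorphin homologue, inhibits ALK2, and Vactosertib is described for these experiments as inhibiting both ALK5 and ALK2. These are not full lists of the kinases that each compound inhibits.

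The genes lie on 8 chromosomes in the GRCm39 annotation of the tables. The type I receptor genes are Tgfbr1 at chr4:47353222-47414931, Acvr1 at chr2:58278656-58457169, Bmpr1a at chr14:34132691-34225298 and Bmpr1b at chr3:141542897-141875186, with Acvrl1 (chr15:101026403-101043217) and Acvr1b (chr15:101071948-101111565) side by side. The type II genes are Tgfbr2 at chr9:115913361-116004428, Acvr2a at chr2:48704121-48793281 and Bmpr2 at chr1:59802559-59918173, and the co-receptor gene Tgfbr3 is at chr5:107254436-107437495. Acvr2a shares 446 exon bases with Orc4 on the opposite strand. Whether reads were counted by strand is not stated, so Orc4 could affect the Acvr2a count by an amount that was not measured. Shared exon bases of Tgfbr3, Acvrl1 and Bmpr1a are with genes of few counts.

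The 250 bases before the annotated start are shown for the targets of the inhibitors, Tgfbr1 and Acvr1, and for Bmpr1b, the member whose level varied most over the reprogramming groups. They come from RefSeq, build GRCm38.p6, an older build than that of the tables, and are written 5′ to 3′ on the gene's strand. Capitals mark a pair of motifs searched on both strands. One is the SMAD box CAGAC, which reads GTCTG on the opposite strand. The other is the GC box GGGCGG, which reads as CCGCCC on the opposite strand. The windows are chr4:47352972-47353221 on the plus strand for the most upstream of the 2 Tgfbr1 starts, and chr2:58566829-58567078 and chr3:141982265-141982514, both on the minus strand, for Acvr1 and for the most upstream of the 3 Bmpr1b starts.
Tgfbr1: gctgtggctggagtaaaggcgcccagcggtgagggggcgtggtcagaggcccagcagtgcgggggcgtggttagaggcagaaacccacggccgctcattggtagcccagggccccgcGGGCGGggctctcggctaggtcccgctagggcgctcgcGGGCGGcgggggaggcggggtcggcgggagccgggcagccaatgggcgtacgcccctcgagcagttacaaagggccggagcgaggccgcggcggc
Acvr1: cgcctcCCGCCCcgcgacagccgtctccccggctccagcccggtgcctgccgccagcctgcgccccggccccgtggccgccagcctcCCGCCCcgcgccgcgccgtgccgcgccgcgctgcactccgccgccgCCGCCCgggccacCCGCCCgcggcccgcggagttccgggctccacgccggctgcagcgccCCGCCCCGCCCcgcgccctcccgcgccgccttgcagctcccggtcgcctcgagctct
Bmpr1b: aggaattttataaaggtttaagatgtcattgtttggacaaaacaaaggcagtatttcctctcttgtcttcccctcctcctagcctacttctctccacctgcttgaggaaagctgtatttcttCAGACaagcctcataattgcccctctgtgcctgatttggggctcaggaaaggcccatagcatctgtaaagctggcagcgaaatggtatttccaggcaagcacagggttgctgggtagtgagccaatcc
The Tgfbr1 window shown held 2 GC boxes and 0 SMAD boxes and was 74.8% G or C, while that of its second start, not shown, held 0 GC boxes and 1 SMAD box and was 52.8% G or C. Acvr1 had 6 GC boxes, 0 SMAD boxes and 85.6% G or C. Bmpr1b had 1 SMAD box, 0 GC boxes and 46.8% G or C. Of the 32851 windows of the same length in the RefSeq table, 42.2% held a SMAD box and 32.7% a GC box on either strand, and of the 11 windows of 8 members, 5 and 6 did. Windows for Tgfbr3 and Acvrl1 were not used here.

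The reprogramming libraries held 16538374 to 18484951 counts each and the inhibitor libraries 17102639 to 30599138. Levels are given as CPM, counts divided by the library's total after TMM scaling, and the tables were scaled separately. Ercc1 was at 8.03 to 18.6 CPM in the 18 D/KO and 16.8 to 29.1 CPM in the 18 WT reprogramming libraries, and at 13.2 to 23.5 CPM in D/KO and 13.3 to 30.1 CPM in WT controls of the inhibitor table, so the ranges overlapped in both tables. Over both lines, Pou5f1 (Oct4) was at 0.471 to 2.88 CPM at day 0 and 12.5 to 150 CPM at days 2 and 4. These pooled ranges do not show whether induction was equal in the lines. Of the fibroblast markers, Col1a1 and Vim were abundant in every group. Col1a1 is also on the list of TGFb target genes described below. D/KO cells also carried endothelial transcripts: the 8 endothelial markers summed to 848 to 915 CPM at day 0 in D/KO against 15.9 to 17.9 CPM in WT. Within a group, receptor levels were often low together in 1 library: WT skin replicate 1 was the lowest of its group for 10 of 10 members, Repsox replicate 2, D/KO day 4 replicate 2 and WT tail tip replicate 3 for 9 of 10 each, and control D/KO replicate 1, Vactosertib replicate 3, DMH-1 replicate 3 and WT day 0 replicate 2 for 8 of 10 each.

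Per kilobase of exon, which allows levels of different genes to be compared, Tgfbr2 was the most abundant receptor transcript in 19 of the 20 groups and Bmpr1b the least. At D/KO day 0, Tgfbr2 stood at 46.4 ± 3.35 CPM per kb (SD, n = 3), Tgfbr3 at 28.1 ± 4.81, Acvr1 at 21.2 ± 0.356 and Bmpr1a at 20.4 ± 1.96. Acvrl1 followed at 16.3 ± 1.67, Acvr2a at 14.1 ± 3.09, Bmpr2 at 10.7 ± 1.79, Tgfbr1 at 9.61 ± 1.52, Acvr1b at 3.34 ± 0.609 and Bmpr1b at 0.580 ± 0.0645 CPM per kb. The levels of Acvr1 and Bmpr1a, of Acvrl1 and Acvr2a, and of Bmpr2 and Tgfbr1 differed by less than their spread. In WT at day 0 the order was alike at the top, with Tgfbr2 at 62.7 ± 2.90 and Tgfbr3 at 55.4 ± 3.91 CPM per kb, and Bmpr1b was at 0.110 ± 0.0411. By day 4 in D/KO, Acvrl1, the type I receptor best known from endothelium, was second at 38.4 ± 5.68 CPM per kb.

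**Figure D1:**
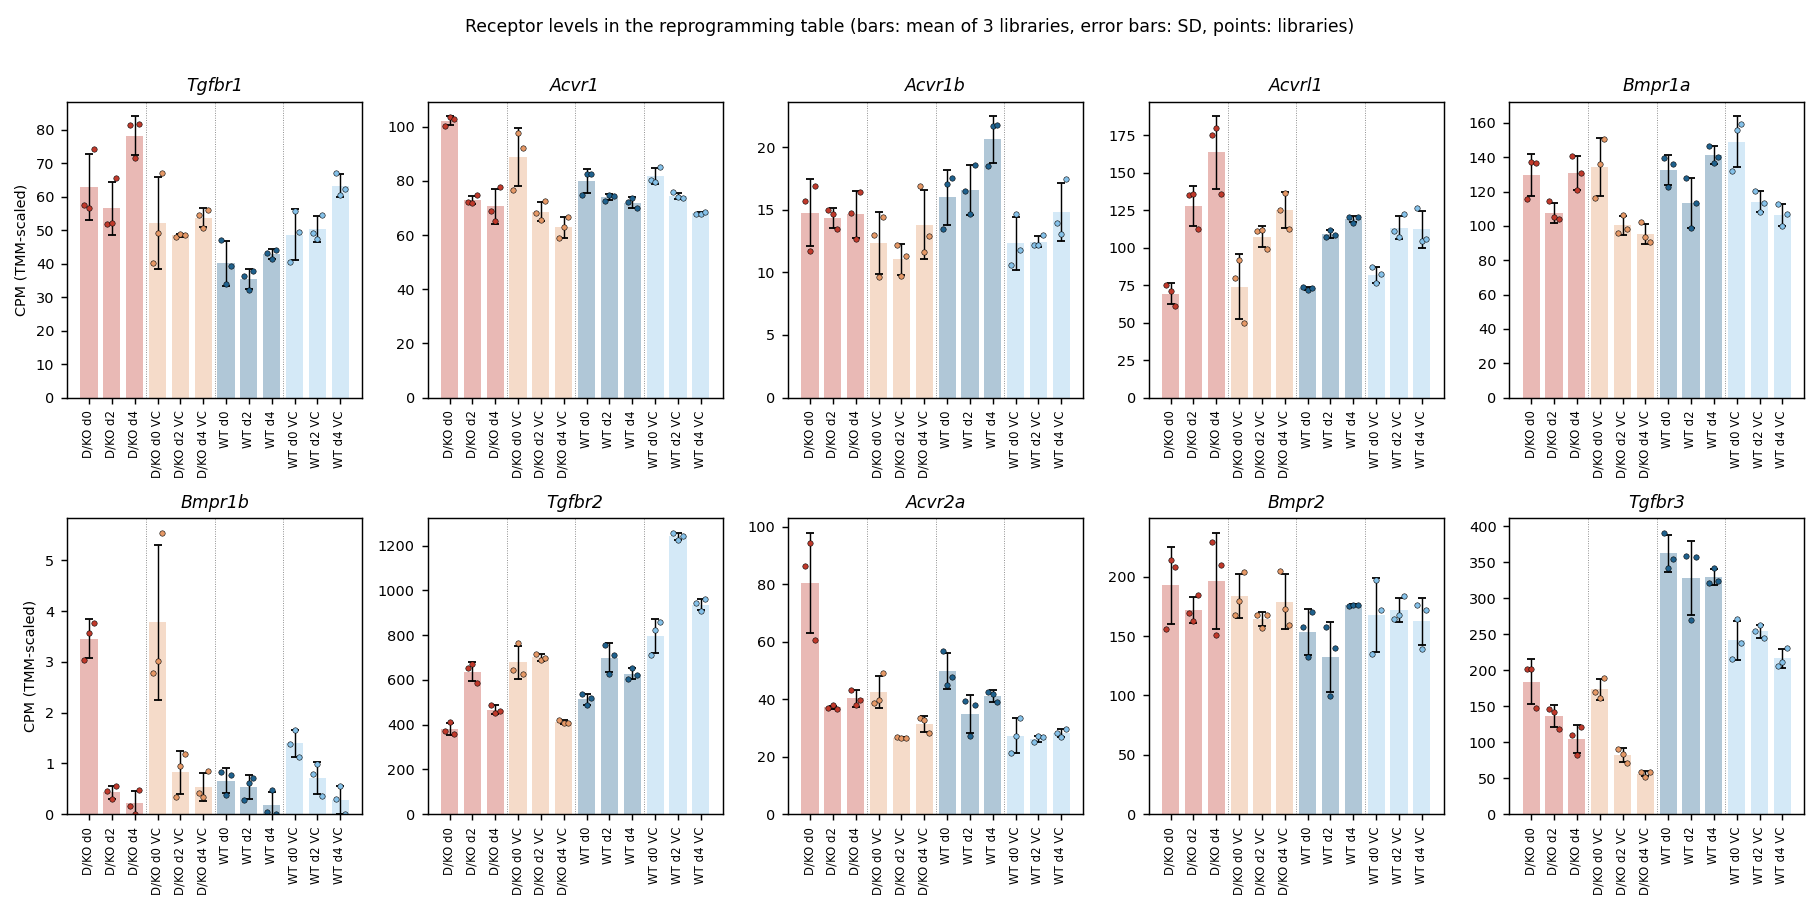
Level of each receptor transcript in the 12 reprogramming groups, in TMM-scaled CPM on a linear axis from 0 (bars, mean of 3 libraries; error bars, SD; points, single libraries). In D/KO, Acvrl1 climbed from a mean of 69.3 CPM at day 0 to 163.7 at day 4, while Acvr2a dropped from 80.4 to 40.3 and Bmpr1b from 3.46 to 0.216.

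Levels with induction were compared with day 0 of the same line and arm. A transcript is called when its p from the quasi-likelihood test of edgeR, after the Benjamini-Hochberg correction over all genes tested, is below 0.05. That p is given as the edgeR adjusted p. At day 2 in D/KO, 2 members rose (Tgfbr2, Acvrl1) and 5 fell (Tgfbr3, Acvr1, Acvr2a, Bmpr1a, Bmpr1b), where 27.4% of the 15832 genes tested were called. By day 4, the same 2 were higher and 4 were lower (Tgfbr3, Acvr1, Acvr2a, Bmpr1b), against 37% of all genes. With VC at day 2, Acvrl1 rose and Tgfbr3, Acvr1, Acvr2a, Bmpr1a and Bmpr1b fell, against 47.4% of all genes. With VC at day 4, Acvrl1 rose and Tgfbr2 joined those 5 that were lower, against 54.1%. The shares with VC, 6 and 7 of 10 members, were near those of all genes. The median log2 change of the 10 members was -0.22 and -0.0023 at days 2 and 4, and -0.27 and -0.46 with VC, while the median over all genes tested was -0.0012, 0.0001, -0.0098 and 0.0128.

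In WT, Tgfbr2 and Acvrl1 rose and Acvr2a fell at day 2, where 10.6% of all genes were called. At day 4 Tgfbr2 and Acvrl1 were the 2 members called, both higher, against 24.5% of all genes. With only these 2 groups fitted, 5 members and 6400 genes were called, in place of 2 and 3880. With VC, Tgfbr2 and Acvrl1 rose and Bmpr1a fell at day 2 (27.5% of all genes, a share near that of the members). With VC at day 4, Tgfbr1, Tgfbr2 and Acvrl1 rose and Acvr1, Bmpr1a and Bmpr1b fell (44.7%). The members' median log2 changes were -0.16, 0.09, 0.02 and -0.00045, beside 0.0034, -0.0120, -0.0076 and 0.0261 over all genes.

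Acvr1 (ALK2), the receptor that DMH-1 inhibits, fell in D/KO. Its level was 100.3, 103.7 and 102.8 CPM in the 3 day 0 libraries, 72.1, 72.0 and 74.7 CPM at day 2, and 69.1, 65.2 and 77.9 CPM at day 4. All 6 induced libraries were below all 3 at day 0. The log2 change was -0.49 (SE 0.082, edgeR adjusted p = 1.43e-05) at day 2 and -0.53 (SE 0.082, edgeR adjusted p = 1.86e-06) at day 4. With VC, Acvr1 fell by 0.37 and 0.50 on the log2 scale at days 2 and 4. In WT, it was at 74.96, 82.5 and 82.5 CPM at day 0 and at 72.1, 73.9 and 69.8 CPM at day 4, a change of -0.15 that was not called (edgeR adjusted p = 0.18). It fell in WT with VC at day 4, by 0.27 (SE 0.082, edgeR adjusted p = 0.00869), a call lost without a filter on low counts (edgeR adjusted p = 0.103).

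Tgfbr1 (ALK5), the kinase that Repsox, Vactosertib and A83-01 inhibit, did not pass the test in D/KO at any time. It was at 57.5, 56.7 and 74.3 CPM at day 0 and at 81.5, 71.5 and 81.7 CPM at day 4, with 1 day 0 library inside the day 4 range. The day 4 difference of 0.32 had an edgeR adjusted p of 0.0681, and of 0.0165 without D/KO day 0 replicate 3. In WT with VC, Tgfbr1 rose from 40.5, 55.6 and 49.5 CPM to 67.0, 60.4 and 62.4 CPM at day 4 (log2 change 0.38, SE 0.14, edgeR adjusted p = 0.0237). That call was lost without day 0 replicate 1 or without day 4 replicate 1 of these groups, with an edgeR adjusted p of up to 0.165. Acvr1b (ALK4), a type I receptor for activins, stayed between 9.64 and 21.7 CPM in all 36 libraries and was called in none of the 8 comparisons with day 0.

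Acvrl1 (ALK1) rose in all 8 comparisons with day 0. In D/KO it was at 75.2, 71.3 and 61.4 CPM at day 0, 135.1, 135.7 and 112.3 CPM at day 2 and 175.3, 180.0 and 135.8 CPM at day 4. No induced library overlapped with day 0. The log2 change was 0.88 (SE 0.13, edgeR adjusted p = 2.68e-06) and then 1.24 (SE 0.13, edgeR adjusted p = 1.49e-09), and with VC it was 0.54 and 0.76. In WT, Acvrl1 went from 73.8, 72.0 and 73.0 CPM to 120.2, 116.8 and 120.8 CPM at day 4 (0.71, SE 0.13, edgeR adjusted p = 0.000104). The difference between the D/KO and WT changes at day 4, 0.53 (SE 0.19), was not called (edgeR adjusted p = 0.0533). It passed in 5 of 16 alternatives, among them without D/KO day 0 replicate 1 and without D/KO day 4 replicate 3.

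Endothelial markers did not move with Acvrl1 in one direction. In D/KO, 7 of the 8 markers fell by day 4, to a sum of 399 to 446 CPM, and 1, Tek, rose. With VC the sum went from 300 to 349 CPM at day 0 to 574 to 801 CPM at day 4, with 3 markers higher and 4 lower. In WT the sum went from 15.9 to 17.9 CPM to 95.4 to 96.3 CPM, nearly all of it Tek (95.02 CPM), with Cdh5, Cldn5, Emcn, Kdr, Pecam1 and Tie1 each below 1 CPM. Markers of mural cells were higher at day 4 than at day 0 in both lines, with and without VC. In D/KO their sum went from 269 to 294 CPM to 365 to 432 CPM, and with VC from 71.6 to 93.4 CPM to 214 to 259 CPM. In WT it went from 46.0 to 51.0 CPM to 128 to 148 CPM, and with VC from 43.1 to 53.1 CPM to 105.5 to 125.7 CPM. Their part in the Acvrl1 change was not tested. Fewer cells of a type and less RNA per cell cannot be told apart in these bulk libraries.

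Among the BMP type I receptors, Bmpr1a (ALK3) fell in 5 of the 8 comparisons with day 0 and Bmpr1b (ALK6) had the widest range. Bmpr1a was at 115.4, 137.0 and 136.8 CPM at D/KO day 0, 114.4, 104.9 and 103.8 CPM at day 2 and 140.6, 120.7 and 130.7 CPM at day 4. Every day 2 library was below every day 0 library, but the fall of 0.27 (SE 0.10, edgeR adjusted p = 0.0445) was lost in 6 of 10 alternatives, among them without replicate 2 or 3 of either group, where the edgeR adjusted p reached 0.151. With VC, Bmpr1a fell at day 4 in D/KO, from 116.4, 136.0 and 150.6 CPM to 102.0, 93.4 and 90.7 CPM (-0.49, SE 0.10, edgeR adjusted p = 9.16e-05). Bmpr1a also fell in WT with VC at day 4, from 132.0, 155.8 and 159.6 CPM to 112.6, 100 and 106.8 CPM (-0.49, SE 0.10, edgeR adjusted p = 0.000166).

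Bmpr1b was a rare transcript that fell to a few counts in D/KO. It stood at 3.03, 3.58 and 3.77 CPM at day 0, 0.460, 0.290 and 0.545 CPM at day 2, and 0.163, 0 and 0.485 CPM at day 4. That is 47 to 64 counts per library at day 0, 5 to 10 at day 2 and 0 to 9 at day 4. Every library of days 2 and 4, which overlapped with each other, was below every day 0 library. The fitted log2 change was -2.98 (SE 0.65, edgeR adjusted p = 0.000465) at day 2 and -3.97 (SE 0.71, edgeR adjusted p = 1.92e-05) at day 4. With VC, levels of 2.78, 3.01 and 5.54 CPM at day 0 gave way to 0.423, 0.334 and 0.842 CPM at day 4. The fall there was 2.80 (SE 0.63, edgeR adjusted p = 0.000267). In WT, Bmpr1b was already at 0.828, 0.376 and 0.766 CPM at day 0, 7 to 15 counts, so a fall of this size could hardly be counted. The WT fall with VC at day 4 (-2.30, SE 0.71, edgeR adjusted p = 0.00837) was lost without day 4 replicate 3, the library with 0 counts, at up to 0.204.

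**Figure D2:**
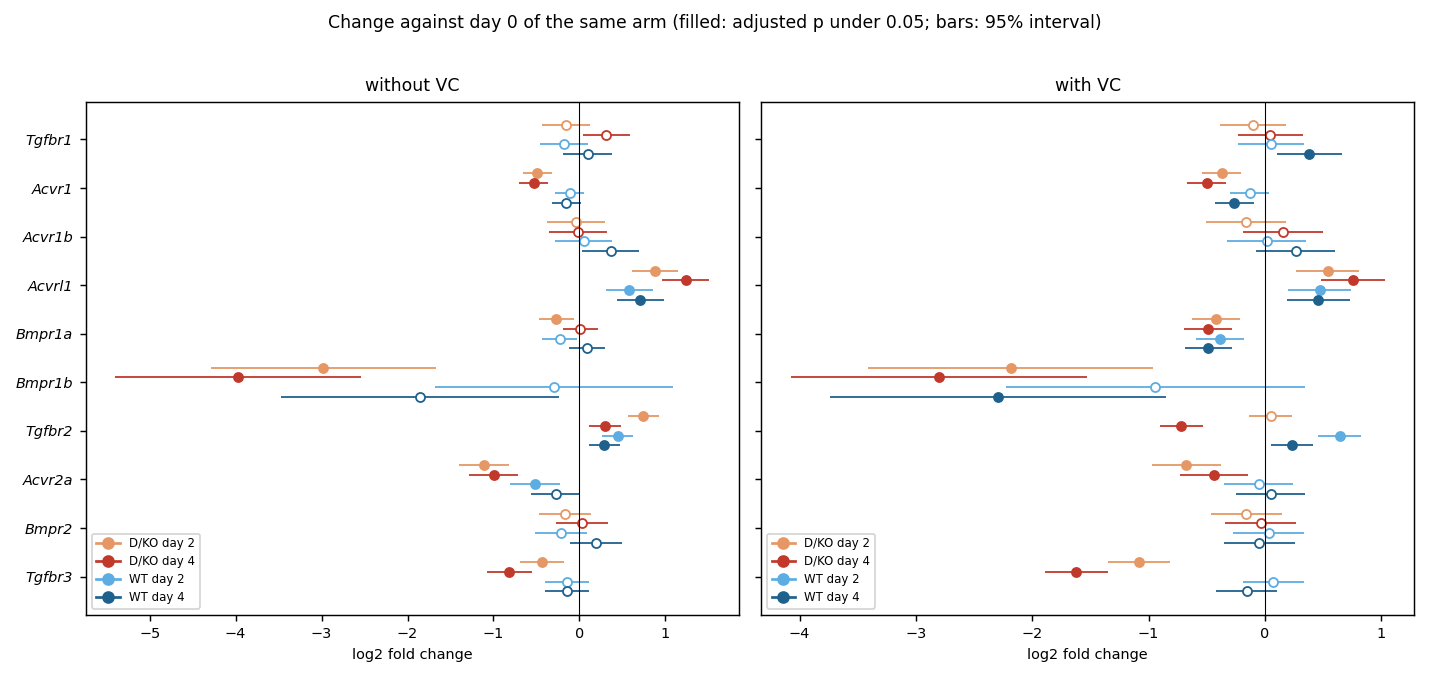
Log2 fold change of each receptor transcript at days 2 and 4 against day 0 of the same line, without VC (left) and with VC (right). Points are the fitted change, filled where the adjusted p was under 0.05, and bars the 95% interval. Acvrl1 lies to the right of 0 in all 8 comparisons, and Tgfbr3 lies to the left in D/KO, by 1.62 at day 4 with VC, with WT points near 0.

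Tgfbr2, which binds TGFb, rose in both lines without VC. In D/KO it went from 373.2, 409.8 and 356.2 CPM at day 0 to 652.2, 669.7 and 587.3 CPM at day 2 (0.75, SE 0.090, edgeR adjusted p = 2.93e-08). It then stood at 489.0, 453.3 and 459.6 CPM at day 4 (0.30, SE 0.089, edgeR adjusted p = 0.00736), still above every day 0 library. The day 4 call was lost when only the 2 groups were fitted (edgeR adjusted p = 0.0819). In WT, Tgfbr2 rose from 535.0, 487.9 and 517.1 CPM to 757.4, 627.9 and 712.7 CPM at day 2 (0.45, SE 0.089, edgeR adjusted p = 0.000579). The smaller WT rise at day 4 (0.29, edgeR adjusted p = 0.0157) was lost without day 0 replicate 2 or day 4 replicate 2, at up to 0.0877.

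With VC, Tgfbr2 fell at day 4 in D/KO and rose at day 2 in WT. In D/KO with VC it was at 645.4, 763.2 and 626.4 CPM at day 0, 716.7, 687.5 and 699.3 CPM at day 2 and 422.6, 407.8 and 406.4 CPM at day 4. The day 4 libraries lay below those of days 0 and 2, a change of -0.72 (SE 0.090, edgeR adjusted p = 1.72e-08). In WT with VC it was at 711.7, 821.0 and 856.8 CPM at day 0 and 1258, 1225 and 1242 CPM at day 2 (0.64, SE 0.090, edgeR adjusted p = 5.56e-07), with no overlap. Its rise at day 4 (0.23, edgeR adjusted p = 0.0312) was lost in 5 of 11 alternatives, among them without day 0 replicate 1 or day 4 replicate 1 or 3 (up to 0.203). Against day 0 without VC, however, the log2 difference of D/KO at day 4 with VC was 0.12 (edgeR adjusted p = 0.275), as day 0 itself was higher with VC.

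Acvr2a, a type II receptor for activins and BMPs, fell in D/KO. It was at 86.2, 94.3 and 60.7 CPM at day 0, 37.0, 37.8 and 36.7 CPM at day 2 and 43.4, 37.8 and 39.6 CPM at day 4. The 6 induced libraries were all below the lowest day 0 library, at log2 changes of -1.11 (SE 0.14, edgeR adjusted p = 9.74e-08) and -0.997 (SE 0.14, edgeR adjusted p = 4e-07). The fall with VC was 0.67 at day 2 and 0.43 at day 4, and the latter was lost without replicate 3 of either group (edgeR adjusted p up to 0.0883). In WT, Acvr2a fell at day 2 from 56.8, 44.8 and 47.7 CPM to 39.3, 27.2 and 38.1 CPM (-0.51, SE 0.14, edgeR adjusted p = 0.0138), a call lost without day 0 replicate 1 or day 2 replicate 2 (up to 0.158).

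Bmpr2, the main BMP type II receptor, was called in none of the 27 comparisons. Its group means stayed between 132.5 and 196.6 CPM over the 12 reprogramming groups, a range of 0.57 on the log2 scale and the narrowest of the 10 members. Its 95% intervals at day 4 were -0.27 to 0.33 in D/KO and -0.11 to 0.50 in WT, which bounds the change these libraries could show.

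Tgfbr3, the betaglycan co-receptor, fell in D/KO and was not called in WT against day 0 of the same arm. D/KO levels were 202.2, 201.9 and 147.6 CPM at day 0, 146.7, 142.7 and 118.8 CPM at day 2 and 109.4, 82.6 and 121.2 CPM at day 4. Days 2 and 4 lay wholly below day 0. The log2 change was -0.43 (SE 0.13, edgeR adjusted p = 0.00962) at day 2, a call lost without day 0 replicate 1 or 2 or day 2 replicate 3 (up to 0.0751), and -0.82 (SE 0.13, edgeR adjusted p = 2.9e-06) at day 4. With VC it went from 170.2, 161.3 and 189.3 CPM to 90.3, 84.2 and 71.2 CPM and then to 59.3, 52.0 and 58.2 CPM. These falls were 1.08 (SE 0.13, edgeR adjusted p = 1.15e-08) and 1.62 (SE 0.13, edgeR adjusted p = 7.63e-13). WT Tgfbr3 was at 391.5, 342.3 and 354.8 CPM at day 0 and 321.4, 341.9 and 324.1 CPM at day 4, and its log2 change in the 4 WT comparisons was between -0.16 and 0.07. Against day 0 without VC, however, Tgfbr3 was called lower in WT with VC, with a log2 change of -0.51 after 2 days (edgeR adjusted p = 0.0015) and of -0.74 after 4 (edgeR adjusted p = 1.24e-05).

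The difference between the D/KO and WT changes was tested as an interaction. At day 2 it was called for 1 member, Acvr1 (-0.38, SE 0.12, edgeR adjusted p = 0.0429), where 6.54% of all genes were called, and 13 of 16 alternatives lost the call (up to 0.318), among them without any 1 of the 12 libraries except WT day 2 replicate 1. At day 4 it was called for Tgfbr3, Acvr1 and Acvr2a, against 14.3% of all genes. Tgfbr3 differed by -0.68 (SE 0.18, edgeR adjusted p = 0.00871) and Acvr2a by -0.72 (SE 0.20, edgeR adjusted p = 0.0113), the latter lost without D/KO day 0 replicate 2 (0.0552). Acvr1 differed by -0.38, a call lost in 6 of 16 alternatives (up to 0.213), among them without D/KO day 4 replicate 1 or 2, WT day 0 replicate 1 or WT day 4 replicate 2. The fitted change of each of these 3 receptors was more negative in D/KO than in WT, where none of them was called at day 4. Acvr1 and Acvr2a were higher in D/KO at day 0, at means of 102.3 and 80.4 CPM against 79.98 and 49.8 CPM in WT. At day 4 the lines were alike, at 70.7 and 40.3 CPM in D/KO and 71.9 and 41.1 CPM in WT.

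With VC at day 2 the interaction was called for Tgfbr2, Tgfbr3 and Acvr2a, against 13.9% of all genes, and at day 4 for Tgfbr2 and Tgfbr3, against 29.4%. The 2 of 10 members at day 4 did not exceed the share of all genes. Tgfbr3 differed by -1.16 (SE 0.18, edgeR adjusted p = 1.96e-05) and -1.46 (SE 0.18, edgeR adjusted p = 1.37e-07). Tgfbr2 differed by -0.59 (SE 0.13, edgeR adjusted p = 0.00102) and -0.95 (SE 0.13, edgeR adjusted p = 4.11e-07). Acvr2a differed by -0.62 at day 2, a call lost in 8 of 16 alternatives (edgeR adjusted p up to 0.142), each of them without 1 library: D/KO day 0 replicate 3, any of D/KO day 2, or replicate 1 or 2 of WT day 0 or 2 or 3 of WT day 2. Keratinocyte markers moved in the same groups: their sum in D/KO with VC went from 4.42 to 9.64 CPM at day 0 to 444 to 566 CPM at day 4, led by Krt14, Dsp and Cdh1, while Krt5 and Krt15 stayed at 0.50 CPM or below. In WT with VC it went from 36.1 to 41.5 CPM to 64.2 to 85.5 CPM. Without VC, the keratinocyte sum went from 1.53 to 2.13 CPM at day 0 to 64.9 to 78.5 CPM at day 4 in D/KO, with 5 of 5 tested markers higher, and from 18.5 to 24.6 CPM to 40.6 to 45.1 CPM in WT, with 2 higher. The fibroblast sum in D/KO went from 80030 to 119000 CPM to 37350 to 38960 CPM by day 4, with 6 of 9 markers lower and 1 higher, and in WT from 52040 to 53800 CPM to 45910 to 48160 CPM. The part of these transcripts in the receptor changes was not tested, and the fibroblast list shares Col1a1 with the TGFb targets.

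VC without induction changed 3 receptors. In D/KO at day 0, Tgfbr2 was higher with VC, at 645.4, 763.2 and 626.4 CPM against 373.2, 409.8 and 356.2 CPM (0.84, SE 0.090, edgeR adjusted p = 3.39e-09). Acvr2a was lower, at 38.6, 39.8 and 49.0 CPM against 86.2, 94.3 and 60.7 CPM (-0.92, SE 0.14, edgeR adjusted p = 3.85e-06). Neither pair of groups overlapped, and these were the 2 members called, where 26.1% of all genes were. In WT at day 0, Tgfbr2 was higher by 0.63 with VC, Acvr2a differed by -0.87 and Tgfbr3 by -0.59, against 29.4% of all genes (edgeR adjusted p = 8.79e-07, 1.39e-05 and 0.000522). Tgfbr3 there was at 216.2, 270.8 and 237.6 CPM with VC and 391.5, 342.3 and 354.8 CPM without. In both lines the share of members called was near that of all genes. Marker lists moved in the same groups. With VC at day 0 in D/KO, the endothelial sum was 300 to 349 CPM against 848 to 915 CPM (8 of 8 markers lower). The mural sum was 71.6 to 93.4 CPM against 269 to 294 CPM (4 of 6 lower), the chondrocyte sum 21.0 to 35.4 CPM against 99.7 to 155 CPM (2 of 3 tested lower), and the fibroblast sum 183500 to 253100 CPM against 80030 to 119000 CPM (6 of 9 higher, 1 lower). In WT the fibroblast sum was 155500 to 171400 CPM with VC and 52040 to 53800 CPM without (6 of 9 higher). The chondrocyte sum was 29.5 to 37.3 CPM with VC against 82.0 to 88.9 CPM, and the endothelial sum 5.59 to 8.02 against 15.9 to 17.9 CPM. The keratinocyte sum was 36.1 to 41.5 against 18.5 to 24.6 CPM and the muscle sum 8.04 to 11.3 against 1.82 to 3.01 CPM, while the mural sums overlapped. Their part in the receptor differences was not tested, and the fibroblast list shares Col1a1 with the TGFb targets.

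During induction VC went with lower Tgfbr3 and Acvr2a in both lines. In D/KO these were the 2 members called at day 2, both lower with VC, against 25.3% of all genes, a share near that of the members. At day 4 in D/KO, Tgfbr1, Tgfbr3, Acvrl1, Acvr2a and Bmpr1a were lower with VC, against 34.5% of all genes, although the Acvr2a call was lost in 8 of 10 alternatives, among them without any 1 of the 6 libraries (up to 0.176), and the Acvrl1 call without D/KO day 4 replicate 1 or 2 or day 4 with VC replicate 3 (up to 0.0992). Tgfbr1 was at 54.6, 50.5 and 56.1 CPM with VC at D/KO day 4 and 81.5, 71.5 and 81.7 CPM without (-0.54, SE 0.14, edgeR adjusted p = 0.00202). In WT, Tgfbr1 and Tgfbr2 were higher with VC and Tgfbr3 and Acvr2a lower at day 2, against 26.6% of all genes. At day 4 in WT, Acvr1b and Bmpr1a were lower as well, making 6 members called against 22.4% of all genes. Tgfbr1 in WT was at 67.0, 60.4 and 62.4 CPM with VC at day 4 and 43.0, 41.4 and 44.1 CPM without, with no overlap (0.56, SE 0.14, edgeR adjusted p = 0.00234). The WT call of Tgfbr3 at day 2 was lost without replicate 1 or 3 of either group (up to 0.113). That of Acvr2a at day 2 was lost in 6 of 10 alternatives, among them without replicate 1 or 3 or any library with VC (up to 0.152). The Acvr1b call at day 4 was lost without replicate 2 or 3, or without replicate 1 or 2 with VC (up to 0.149). Marker sums differed in the same groups. At D/KO day 4 with VC against without, the chondrocyte sum was 13.03 to 15.43 against 117.8 to 134.9 CPM, the mural sum 214 to 259 against 365 to 432 CPM, the endothelial sum 574 to 801 against 399 to 446 CPM and the keratinocyte sum 444 to 566 against 64.9 to 78.5 CPM. At WT day 4 the chondrocyte sum was 19.4 to 23.8 CPM with VC against 123.6 to 133.4 CPM. The part of these markers was not tested.

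Before induction the lines differed in 6 of 10 receptors, where 43.2% of all genes were called. D/KO cells were higher for Tgfbr1, Acvr1, Acvr2a and Bmpr1b and lower for Tgfbr2 and Tgfbr3. Bmpr1b showed the widest gap, at 3.03, 3.58 and 3.77 CPM in D/KO against 0.828, 0.376 and 0.766 CPM in WT (2.39, SE 0.61, edgeR adjusted p = 0.00178). Tgfbr3 was at 202.2, 201.9 and 147.6 CPM in D/KO and 391.5, 342.3 and 354.8 CPM in WT (-0.98, SE 0.13, edgeR adjusted p = 1.18e-07). The line, sex and age of the mice differ along with genotype, and so do the endothelial markers, all 8 of which were higher in D/KO, as were all 6 mural cell markers. Other lists differed the other way: the immune sum was 75.5 to 145.9 CPM in WT against 12.8 to 13.4 CPM in D/KO, with all 5 tested markers lower in D/KO, and the keratinocyte sum was 18.5 to 24.6 CPM against 1.53 to 2.13 CPM, with 2 of 5 lower. The part of these markers in the receptor differences was not tested.

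The genes around the receptors were described from lists that overlap in Smad6, Smad7, Smad9 and Bambi. Col1a1, on the list of TGFb targets, is also a fibroblast marker here. At day 4 in D/KO, 8 of 10 tested TGFb target genes fell and none rose, with a median log2 change of -1.58 beside 0.0001 over all genes. In this comparison 37% of all genes were called, which is the share to read each of the following counts against. Among these were Ltbp2 (-2.23), a matrix protein of the latent TGFb binding family, and Acta2 (-2.61), the smooth muscle actin of myofibroblasts, and Col1a1 (-2.11), the main fibrillar collagen chain. Of the 8 BMP targets, 6 rose, among them the transcriptional inhibitors Id1 (2.47) and Id2 (1.57), and 1 fell, Bambi (-0.63), a decoy receptor. Of 12 tested ligands 4 rose, led by Bmp6 (2.65), and 4 fell, among them Tgfb1 (-1.58). Among the 6 Smads, Smad9 rose (1.21) and Smad1 (-0.67) and Smad3 (-0.39) fell. Of 7 tested other receptors 2 fell, Bambi and the endothelial co-receptor Eng (-0.32). Of 19 receptor modulators 4 rose and 3 fell, led by the TGFb co-receptor Cd109 (1.86), the endocytic adaptor Dab2 (1.36) and caveolin Cav1 (-1.13), a share near that of all genes. All these are log2 changes with an edgeR adjusted p under 0.05. Of the TGFb targets, 7 fell in D/KO at day 2 (27.4% of all genes called), 8 at day 2 with VC (47.4%) and 8 at day 4 with VC (54.1%), where 1 rose.

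In WT at day 4, where 24.5% of all genes were called, 6 of the 10 TGFb targets fell and 1 rose, with Acta2 at -3.06 and Ltbp2 at -1.67 on the log2 scale and Tgfbi, a matrix protein, at 1.07. Of the 8 BMP targets none rose and 2 fell, Bambi (-0.65) and Id2 (-0.52), a share near that of all genes. The interaction at day 4 was called for 4 TGFb targets, all lower in D/KO, and for 4 BMP targets, all higher in D/KO, where 14.3% of all genes were called. The ligand Bmp6 rose in WT too (2.15, edgeR adjusted p = 3.05e-18), as did Bmp4 (1.69).

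The inhibitors were compared with the same 3 control D/KO libraries, so their changes share those controls. The labels give no dose. Doses of 0.1 µM for Repsox and Vactosertib and 1 µM for A83-01 and DMH-1, for 3 days, are stated for a methylation assay of the same treatments and are taken to hold here. With Repsox 4 members fell (Tgfbr1, Acvr1, Acvrl1, Bmpr1b), where 25.2% of the 15164 genes tested were called. With Vactosertib 3 fell (Tgfbr1, Acvr1, Bmpr1b), against 22.1% of all genes. With A83-01 5 fell (Tgfbr1, Acvr1, Acvrl1, Acvr2a, Bmpr1b), against 32.6%. With DMH-1, 1 member was called, Tgfbr2, which rose, against 9.75% of all genes, a share near that of the members. The members' median log2 change was -0.36 with Repsox, -0.33 with Vactosertib, -0.40 with A83-01 and -0.07 with DMH-1, beside 0.02, 0.01, 0.0027 and 0.0027 over all genes.

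**Figure D3:**
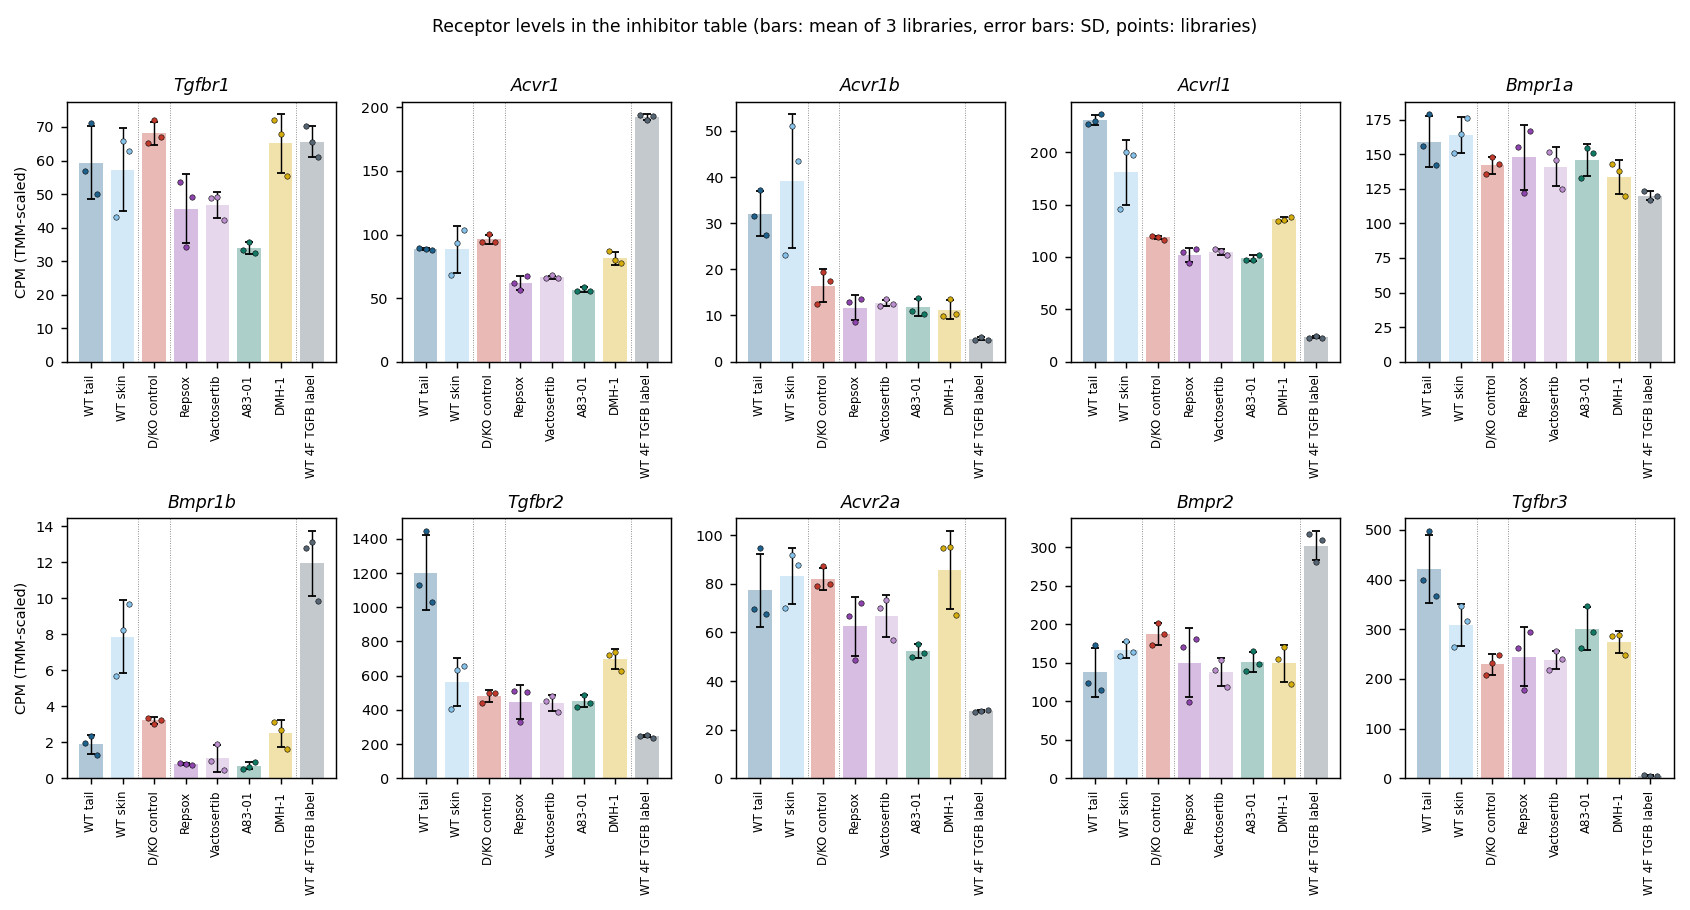
Level of each receptor transcript in the 8 groups of the inhibitor table, in TMM-scaled CPM on a linear axis from 0 (bars, mean of 3 libraries; error bars, SD; points, single libraries). The A83-01 libraries lie at 32.5 to 35.8 CPM for Tgfbr1, below all 3 control D/KO libraries at 65.2 to 72.0 CPM, and the libraries labelled TGFB stand apart for Acvr1, Bmpr1b, Bmpr2 and Tgfbr3.

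Transcripts of the inhibited kinase itself were lower with the ALK5 inhibitors. Tgfbr1 was at 65.2, 72.0 and 67.0 CPM in control D/KO, 53.7, 34.2 and 49.1 CPM with Repsox, 48.8, 49.1 and 42.1 CPM with Vactosertib and 33.3, 35.8 and 32.5 CPM with A83-01. None of these 9 treated libraries reached the lowest control. The log2 change was -0.58 (SE 0.15, edgeR adjusted p = 0.0103), -0.54 (SE 0.15, edgeR adjusted p = 0.0186) and -1.01 (SE 0.15, edgeR adjusted p = 7.69e-05) in that order. The Vactosertib call was lost without control replicate 2 or Vactosertib replicate 3 (up to 0.0807), and the Repsox call when only the 2 groups were fitted (0.0522). With DMH-1, Tgfbr1 was at 72.1, 67.9 and 55.3 CPM, which overlapped with control (-0.06, edgeR adjusted p = 0.878). Marker sums differed in the same groups. The fibroblast sum was 79150 to 84440 CPM in control, 40590 to 48170 CPM with Repsox, 49060 to 52540 CPM with Vactosertib, 42360 to 45050 CPM with A83-01 and 68100 to 85730 CPM with DMH-1. The keratinocyte sum was 1.75 to 3.25 CPM in control, 4.46 to 12.1 CPM with Repsox, 4.75 to 9.79 CPM with Vactosertib and 10.9 to 11.9 CPM with A83-01. With DMH-1 it was 3.23 to 3.54 CPM. The chondrocyte sum was 61.3 to 73.0 CPM in control and 26.7 to 33.9 CPM with DMH-1. Their part in the receptor changes was not tested. The fibroblast list holds Col1a1, which is also on the list of TGFb targets, so its sum is not separate from those targets.

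Acvr1 (ALK2) was at 94.1, 100.3 and 94.5 CPM in control D/KO. It stood at 62.2, 56.6 and 67.1 CPM with Repsox, 65.7, 67.8 and 65.4 CPM with Vactosertib and 55.6, 58.7 and 55.3 CPM with A83-01, all well below control. Its log2 change was -0.64 (SE 0.075, edgeR adjusted p = 6.78e-06), -0.53 (SE 0.075, edgeR adjusted p = 6.22e-05) and -0.77 (SE 0.075, edgeR adjusted p = 5.44e-07), and each call held in all 11 alternatives. With the ALK2 inhibitor DMH-1, Acvr1 was at 86.9, 79.6 and 77.4 CPM, also below every control library, but the change of -0.24 (SE 0.074) was not called (edgeR adjusted p = 0.0516) and passed in 2 of 11 alternatives, with DESeq2 and without DMH-1 replicate 1.

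Bmpr1b (ALK6) fell with all 3 ALK5 inhibitors. Control D/KO had 3.36, 3.02 and 3.25 CPM, 55 to 79 counts. Repsox left 0.838, 0.796 and 0.759 CPM, Vactosertib 0.950, 1.93 and 0.470 CPM and A83-01 0.538, 0.611 and 0.924 CPM. The log2 change was -2.01 (SE 0.38, edgeR adjusted p = 0.000812), -1.48 (SE 0.37, edgeR adjusted p = 0.00821) and -2.21 (SE 0.39, edgeR adjusted p = 0.000275), without overlap. With DMH-1 it was at 3.13, 2.68 and 1.64 CPM, a difference of -0.35 with a 95% interval of -1.08 to 0.38.

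Acvrl1 (ALK1) was at 119.9, 119.2 and 116.5 CPM in control and 96.9, 97.5 and 102.1 CPM with A83-01 (-0.26, SE 0.067, edgeR adjusted p = 0.00595), a call lost without a filter on low counts (0.117). With Repsox it was at 104.6, 94.5 and 107.2 CPM (-0.22, edgeR adjusted p = 0.0249), a call lost in 7 of 11 alternatives, among them without Repsox replicate 2 or any 1 control library (up to 0.276). DMH-1 gave 134.6, 135.6 and 137.9 CPM, above every control library, but not called (0.20, edgeR adjusted p = 0.0718). Endothelial markers summed to 391 to 424 CPM in control, 177 to 224 CPM with A83-01, where 6 of 8 were lower and 1 higher, and 460 to 548 CPM with DMH-1, where 3 were higher. With Repsox (325 to 466 CPM, 2 higher and 1 lower) and Vactosertib (371 to 455 CPM, 1 higher) their sums spanned those of control. Their part was not tested. Bmpr1a (ALK3) was called with none of the 4 inhibitors, with log2 differences of -0.09 to 0.06, nor was Acvr1b (ALK4), with -0.54 to -0.36.

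Of the type II receptors, Tgfbr2 rose with DMH-1, from 439.1, 500.5 and 501.3 CPM to 720.9, 738.2 and 628.2 CPM. The log2 change of 0.54 (SE 0.16, edgeR adjusted p = 0.037) was lost in 6 of 11 alternatives, among them without any 1 of the 3 control libraries and without DMH-1 replicate 1 or 2 (up to 0.137), although the groups did not overlap. With the 3 ALK5 inhibitors Tgfbr2 differed by -0.11 to -0.10. Acvr2a fell with A83-01, from 79.0, 87.2 and 79.7 CPM to 50.0, 55.4 and 51.6 CPM (-0.65, SE 0.16, edgeR adjusted p = 0.00543). Repsox (-0.39) and Vactosertib (-0.29) did not pass for Acvr2a, nor did any inhibitor for Bmpr2 (-0.43 to -0.31). Tgfbr3 was not called either, at 263.0, 347.1 and 293.5 CPM with A83-01 against 207.2, 231.7 and 248.6 CPM in control (0.39, edgeR adjusted p = 0.0724).

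Of the compounds, 2 pairs share a dose and were compared directly, with p-values adjusted over all genes in each. Repsox and Vactosertib, at 0.1 µM, both inhibit ALK5 and Vactosertib is described as inhibiting ALK2 too. They differed in none of the 10 members and in 0 of 15164 genes (0% called) by edgeR. At an unadjusted p under 0.05 edgeR gave 452 genes, or 1366 without Repsox replicate 2, and DESeq2 called 8. A difference that was not called does not show equal action: the 95% interval of Repsox minus Vactosertib was -0.37 to 0.28 on the log2 scale for Tgfbr1, -0.27 to 0.05 for Acvr1, -0.19 to 0.09 for Acvrl1 and -1.38 to 0.32 for Bmpr1b. For the 6 other members the intervals lay between -0.55 and 0.53.

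A83-01 and DMH-1, both at 1 µM and directed at ALK5 and ALK2, differed in 6 members, where 25.4% of all genes were called. Tgfbr1 was lower with A83-01, at 33.3, 35.8 and 32.5 CPM against 72.1, 67.9 and 55.3 CPM (-0.95, SE 0.15, edgeR adjusted p = 0.000202). Acvr1 (-0.53, edgeR adjusted p = 4.87e-05), Acvrl1 (-0.47, edgeR adjusted p = 6.24e-05), Acvr2a (-0.72, edgeR adjusted p = 0.00353), Tgfbr2 (-0.64, edgeR adjusted p = 0.00586) and Bmpr1b (-1.85, edgeR adjusted p = 0.0017) were lower too. For each of the 6, every A83-01 library lay below every DMH-1 library, and all 6 calls held in each alternative. The 95% intervals of the 4 others were -0.21 to 0.47 for Tgfbr3, -0.36 to 0.47 for Acvr1b, -0.13 to 0.38 for Bmpr1a and -0.40 to 0.43 for Bmpr2.

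**Figure D4:**
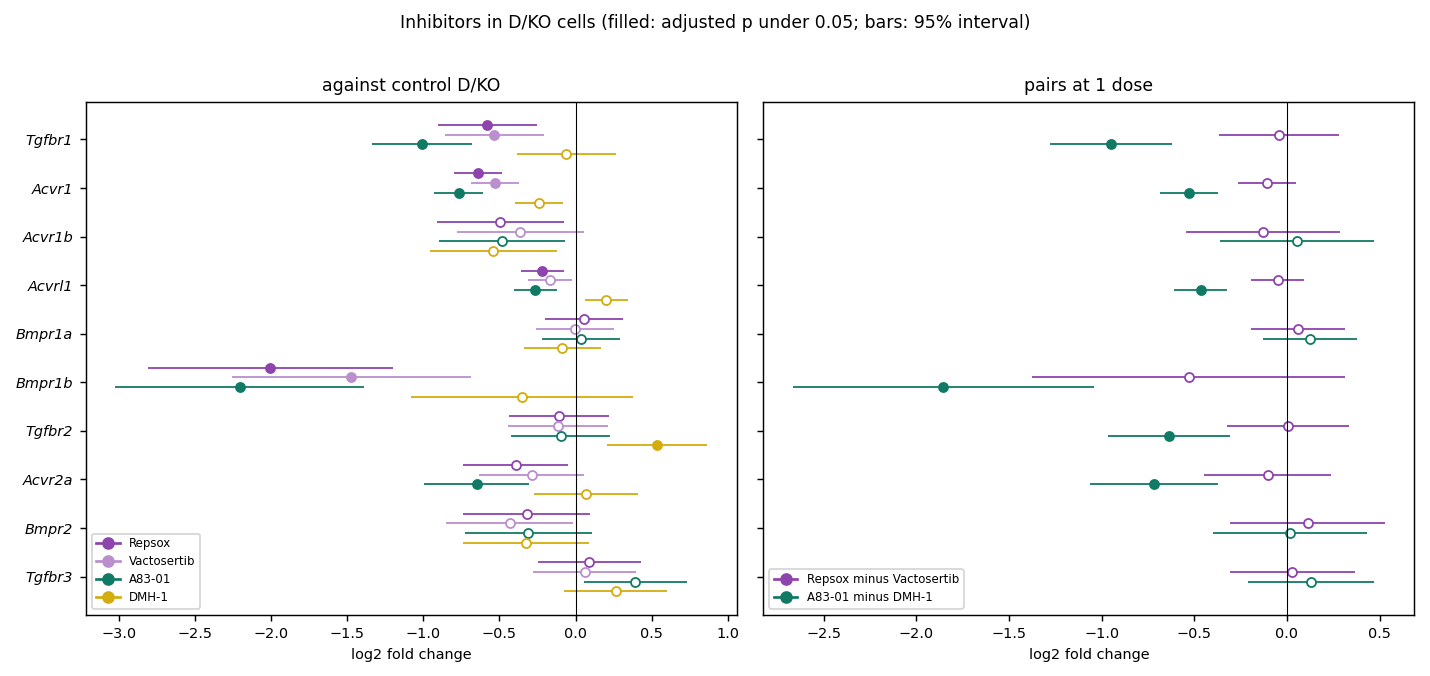
Log2 fold change of each receptor transcript with 4 inhibitors against control D/KO (left) and between the 2 pairs of compounds given at 1 shared dose (right). Points are the fitted change, filled where the adjusted p was under 0.05, and bars the 95% interval. Tgfbr1, Acvr1 and Bmpr1b are filled and left of 0 for Repsox, Vactosertib and A83-01, and no point is filled for Repsox minus Vactosertib.

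Target genes of the pathway changed with all 4 inhibitors. The shares of all genes called were 25.2% with Repsox, 22.1% with Vactosertib, 32.6% with A83-01, 9.75% with DMH-1 and 25.4% for A83-01 against DMH-1. Of the 10 TGFb targets, 7 fell with Repsox, 7 with Vactosertib and 8 with A83-01, and none rose, with medians of -1.10, -1.02 and -1.45. With A83-01 these included Tgfbi (-2.92), Ccn2 (-2.48), a matricellular growth factor, and Pmepa1 (-1.80), a negative regulator of the pathway. All 8 BMP targets rose with Repsox and with A83-01 and 7 with Vactosertib, with medians of 1.68, 1.94 and 1.52 on the log2 scale. They were led by the transcription factor Atoh8 (2.32 with Repsox, 2.18 with Vactosertib and 2.77 with A83-01) and the inhibitory Smad6 (1.30, 1.28 and 1.73). With DMH-1, 7 TGFb targets fell, among them Ltbp2 (-1.31), and 1 rose. No BMP target rose with DMH-1 and 2 fell, Atoh8 (-0.64) and Smad9 (-0.67). Between A83-01 and DMH-1, 7 of 8 BMP targets were higher with A83-01 and 6 TGFb targets were lower.

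Of 7 tested other receptors, 4 rose with Repsox, 3 with Vactosertib, 4 with A83-01 and 2 with DMH-1, and none fell. Of 11 tested ligands, 6 rose and 1 fell with Repsox, 5 and 1 with Vactosertib, 7 and 1 with A83-01, and 5 and 1 with DMH-1. The BMP co-receptor genes Rgmb and Rgma rose with each inhibitor, by 0.58 and 0.92 with Repsox, 0.53 and 0.85 with Vactosertib, 0.75 and 0.91 with A83-01 and 1.28 and 1.08 with DMH-1. Acvr2b, a type II receptor for activins, rose with the 3 ALK5 inhibitors (1.24, 1.09 and 1.74). Among ligands Bmp6 rose with all 4 inhibitors (1.59, 1.47, 1.79 and 1.91), Inhbb, an activin chain, with the ALK5 inhibitors (1.13, 0.97 and 1.57), and Bmp2 (3.27) and Gdf6 (2.05) were among those that rose with DMH-1. Of the 6 Smads, Smad9 was called with each compound, higher with the ALK5 inhibitors (1.86, 1.77 and 2.17) and lower with DMH-1. These are log2 changes with an edgeR adjusted p under 0.05.

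Without inhibitors, control D/KO differed from control WT tail tip cells in 4 of 10 receptors, all lower in D/KO. That share was near the 40.2% of all genes that were called. Tgfbr2 was at 439.1, 500.5 and 501.3 CPM in D/KO and 1131, 1447 and 1030 CPM in WT (-1.31, SE 0.16, edgeR adjusted p = 3.88e-06). Acvrl1 was at 119.9, 119.2 and 116.5 CPM against 226.6, 230.2 and 236.3 CPM (-0.95, SE 0.068, edgeR adjusted p = 8.13e-09). Tgfbr3 (-0.86, edgeR adjusted p = 0.00038) and Acvr1b (-0.95, edgeR adjusted p = 0.000851) were lower too. Tgfbr2 and Tgfbr3 were also lower in the D/KO line of the reprogramming table at day 0, whereas Acvrl1 and Acvr1b were not called there, and Tgfbr1, Acvr1, Acvr2a and Bmpr1b, called higher there, were not called here. These are different mice, and endothelial markers were again higher in D/KO, 7 of 8, with 1 lower. The mural sum was 125.8 to 153.3 CPM in D/KO and 34.5 to 55.7 CPM in WT (4 of 6 markers higher), the muscle sum 10.2 to 12.6 against 2.09 to 3.76 CPM, the keratinocyte sum 1.75 to 3.25 against 11.2 to 14.2 CPM and the chondrocyte sum 61.3 to 73.0 against 138.3 to 144 CPM (3 of 3 tested lower). The part of these markers was not tested.

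WT skin fibroblasts were compared with WT tail tip fibroblasts in a fit of all 24 libraries. Bmpr1b was higher in skin and Tgfbr2, Tgfbr3 and Acvrl1 were lower, where 34.2% of 15652 genes were called. The share of members called, 4 of 10, was near that of all genes. Bmpr1b was at 5.67, 8.24 and 9.67 CPM in skin and 1.98, 2.36 and 1.32 CPM in tail tip (2.05, SE 0.33, edgeR adjusted p = 4.27e-05). Tgfbr2 was at 403.4, 630.7 and 658.1 CPM in skin and 1131, 1447 and 1030 CPM in tail tip (-1.09, SE 0.18, edgeR adjusted p = 5.2e-05). The Tgfbr3 call (-0.45, edgeR adjusted p = 0.0352) was lost in 5 of 10 alternatives, among them without skin replicate 1 or 3 or tail tip replicate 1 or 2 (up to 0.186), and the Acvrl1 call (-0.35) in 2. Endothelial markers were higher in skin, at 243 to 306 CPM against 85.9 to 103 CPM, with 7 of 8 higher and 1 lower. Muscle markers, mainly Des, summed to 57.5 to 84.2 CPM in skin against 2.09 to 3.76 CPM. The part of either in the receptor differences was not tested.

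The 3 libraries labelled TGFB hold the same line as the WT cells of the reprogramming table, have no untreated control of that line in their own table, and are given as levels with no test. What was added to these cells is not stated in the sources used here beyond that label. Their receptor levels had another order: per kilobase Acvr1 was highest at 39.9 ± 0.428 CPM and Tgfbr3 lowest at 0.794 ± 0.0630 CPM (SD, n = 3). Tgfbr3 was at 5.62, 4.79 and 5.18 CPM, where every other library of both tables, which were scaled separately, had at least 52.0 CPM. Acvr1 was at 194.4, 190.3 and 193.0 CPM, Bmpr2 at 316.8, 280.6 and 309.6 CPM and Bmpr1b at 12.8, 13.1 and 9.85 CPM, each above all other libraries. Acvrl1 (22.8, 24.4 and 22.7 CPM), Tgfbr2 (249.7, 250.5 and 237.2 CPM) and Acvr1b (4.70, 5.35 and 4.77 CPM) were each below all others. Of the fibroblast markers, Dcn (19.4 CPM), Pdgfra (16.9 CPM) and Lum (9.55 CPM) were also lower than in any other group, whereas Col1a1 stood at 40700 CPM. The 8 endothelial markers summed to 3.00 to 4.40 CPM, the mural markers to 458 to 468 CPM, above every other group, and the keratinocyte markers to 131 to 135.2 CPM. The TGFb target Ccn2 was at 5324 CPM and the ligand gene Inhba at 3149 CPM.

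Genes whose group means over the 12 reprogramming groups were most like those of 3 members were found by Pearson's r on mean log2 CPM among 15832 genes. The points share libraries and scaling, so r is a description. For Acvr1 they included Rcan3 (0.959) and Slc41a2 (0.95). For Tgfbr1 they were Cyp2r1 (0.886), Tmem204 (0.875) and Col4a2 (0.859), a basement membrane collagen chain. For Bmpr1b, which had the widest range of the members at 4.06 on the log2 scale, they were Steap1 (0.969), Tes (0.95) and Nup50 (0.947).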

How the data were processed

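Counts per gene were deposited by the authors as 2 tables, 1 for the reprogramming libraries and 1 for the inhibitor libraries. Per the study's methods and the submitters' processing notes, they came from FastQC, Trim Galore, HISAT2 on GRCm39 and featureCounts of Subread. Versions, strand setting and treatment of multiply mapped reads are not given in the sources used here. The deposited tables also hold exon length (other unit, bases), used for CPM per kb, and none of the authors' fold changes or p-values. Of 56980 rows, 56236 were matched to a GENCODE M39 symbol, and those rows held 99.97% and 99.98% of the counts.

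Samples were grouped by their labels. Genes passing edgeR's filterByExpr (count of 10, total of 15) were TMM-scaled and tested with edgeR 4.0.16 (R 4.3.3, limma 3.58.1) by glmQLFit and glmQLFTest, with Benjamini-Hochberg adjustment over all genes and a threshold of 0.05. All 36 reprogramming libraries entered one fit (15832 genes, TMM factors 0.773 to 1.1, common coefficient of variation 0.132). The inhibitor comparisons used 18 libraries (15164 genes, 0.92 to 1.06, 0.168), without skin and the libraries labelled TGFB, and the skin comparison all 24 (15652 genes, 0.846 to 1.12, 0.195). CPM of the inhibitor table come from the last fit. The pipeline was tested on simulated counts. Replicates differed by more than counting noise in every pair. Intervals are 95%.

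Named were all 10 members, up to 3 genes per pathway list with the smallest p in the comparison described, and the 3 genes most like Tgfbr1, Acvr1 and the member with the widest range. Des, Tek, the ligand Inhba and some markers were named after their values were seen. A gene that met this rule is not reported here. The members and lists were chosen with earlier results of these data known. Alternatives were DESeq2 1.42.0, median-of-ratios scaling, no filter, only the groups compared, all libraries of the inhibitor table, day 0 without VC as baseline, and leaving out each replicate. Python 3.11.15, pandas 2.3.3 and matplotlib 3.10.9 were used for joins and figures. Levels of the 2 tables were scaled separately and no test was made between them.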

Additional observations from a re-analysis of the deposited data

Results flagged for a closer look

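For 4 receptors the change with induction differed between D/KO and WT, by the test of the difference itself (an interaction term in edgeR's quasi-likelihood fit, D/KO change minus WT change on the log2 scale). Over all genes this difference was called for 6.54% at day 2, 14.3% at day 4, 13.9% at day 2 with VC and 29.4% at day 4 with VC. The calls of Tgfbr3 and Tgfbr2 held in the 16 alternatives run for each. Day 0 without VC was not run as the baseline for these differences. Tgfbr3 differed by -0.68 at day 4 (edgeR adjusted p = 0.00871), by -1.16 at day 2 with VC (edgeR adjusted p = 1.96e-05) and by -1.46 at day 4 with VC (edgeR adjusted p = 1.37e-07). Tgfbr2 differed by -0.59 at day 2 with VC (edgeR adjusted p = 0.00102) and by -0.95 at day 4 with VC (edgeR adjusted p = 4.11e-07). The calls of Acvr2a and Acvr1 were less stable, and both receptors were higher in D/KO than in WT at day 0 without VC. Acvr2a differed by -0.72 at day 4 (edgeR adjusted p = 0.0113), lost without D/KO day 0 replicate 2 (0.0552), and by -0.62 at day 2 with VC (edgeR adjusted p = 0.039), lost in 8 of 16 alternatives. Acvr1 differed by -0.38 at day 2 (edgeR adjusted p = 0.0429), lost in 13 of 16 alternatives, and by -0.38 at day 4 (edgeR adjusted p = 0.0233), lost in 6 of 16. Genotype, sex, age and line of the mice, and any difference of the factor transgene, cannot be told apart in these differences.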

How the results depend on the processing

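No paired analysis was possible because the labels number no replicates within groups, and the numbers used here only name libraries in accession order. Of 104 receptor calls, 76 kept their direction and side of the threshold in every alternative. Of 166 differences that were not called, 123 stayed not called in every alternative, whatever their sign. Leaving out each replicate in turn gave these counts of receptor calls: 24 to 27 in D/KO against day 0 (26 with all libraries), 12 to 15 in WT (14), 7 to 10 for VC in D/KO (9), 11 to 15 for VC in WT (13), 7 to 11 for the interaction (9), 6 to 7 for D/KO against WT at day 0 (6), 10 to 18 for the inhibitors (13), 6 to 6 for the pairs (6), 4 to 5 for control D/KO against WT tail tip (4) and 3 to 4 for skin against tail tip (4). The 18 were without Repsox replicate 2. With only the groups compared, skin against tail tip gave 2 receptor calls (2591 genes in place of 5348) and Repsox 2 in place of 4 (2256 genes in place of 3820). Calls rose from 2 to 5 for WT day 4 (6400 genes in place of 3880), from 5 to 8 for A83-01, from 3 to 5 for Vactosertib and from 2 to 4 for VC in D/KO at day 2. VC in D/KO at day 0 stayed at 2, with 2523 genes in place of 4140. With DESeq2, calls rose from 1 to 3 for DMH-1 and for the interaction at day 2. DMH-1 gave 847 to 971 genes in place of 1479 without any 1 control library or without DMH-1 replicate 2, and WT day 2 gave 1110 and 1067 in place of 1672 without day 0 replicate 1 and day 2 replicate 2. Taking day 0 without VC as the baseline reversed 3 values that were called on either baseline, which follows from the other baseline. These were Acvr2a in WT at day 4 with VC, to -0.82 (edgeR adjusted p = 1.63e-05), Tgfbr2 in D/KO at day 4 with VC, to 0.12 (0.275), and Tgfbr3 in WT at day 2 with VC, to -0.51 (0.0015). Changes of sign between values called on neither baseline were not counted. With this baseline, calls at day 2 with VC went from 6 to 9 in D/KO and from 3 to 4 in WT. At day 4 with VC they went from 7 to 6 in D/KO and from 6 to 7 in WT. Depth limits Bmpr1b, with 0 to 27 counts in WT reprogramming libraries, where small changes could not be detected. Intervals cover these 3 libraries a group and 1 mouse a line.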
